A study of Mus musculus with 9 samples.

Results

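Adrenergic, muscarinic and adenosine signals in the heart muscle cell were followed here through 9 named genes. These were the adrenoceptor genes Adrb1, Adra1a and Adra1b, the receptor genes Chrm2 and Adora1, the adenylyl cyclase genes Adcy5 and Adcy6, and the phosphodiesterase genes Pde3a and Pde4d. They made up 9 of the 38293 genes in the count table, were taken by symbol, and all 9 were among the 15318 genes that passed the filter on low counts. The samples were ventricles of mouse pups at postnatal day 7, each sequenced as 1 bulk RNA-Seq library. The study used both male and female pups. The 5 control libraries came from Arid1a f/f mice, in which both copies of Arid1a, a subunit gene of the SWI/SNF chromatin remodeling complex, carry loxP sites but no Cre is present. The 4 cKO libraries came from aMHC-Cre;Arid1a f/f littermates, in which the alpha myosin heavy chain promoter drives Cre in cardiomyocytes around birth. The floxed alleles were shared by both groups, as was the background, given as C57B/6 J, Arid1a stayed intact in the non-muscle cells of the cKO ventricle, and control mice carrying Cre alone were not analysed here.

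Noradrenaline and adrenaline act on ventricular muscle mainly through the beta1 adrenoceptor, which couples to the stimulatory G protein Gs. Gs switches on adenylyl cyclase, the enzyme that makes cyclic AMP, and cyclic AMP activates protein kinase A, which raises calcium cycling and contraction. Acetylcholine at the muscarinic M2 receptor and adenosine at its A1 receptor act through the inhibitory protein Gi against this pathway, alpha1 adrenoceptors use Gq and calcium instead, and phosphodiesterases end the signal by breaking cyclic AMP down.

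The stretch of DNA just before an annotated start was available for 6 of the 9 genes (all but Adra1a, Adcy6 and Pde3a), in 8 windows of 250 bases taken from RefSeq (GRCm38.p6). Those before the outermost starts of Adora1, Adra1b and Adcy5 are shown because transcripts of these 3 genes were lower in the cKO ventricles, and that of Adrb1 because it held one of the motifs searched. Each runs 5′ to 3′ on the strand of its gene, and capitals mark a motif match.
Adora1, chr1:134235458-134235707, minus strand: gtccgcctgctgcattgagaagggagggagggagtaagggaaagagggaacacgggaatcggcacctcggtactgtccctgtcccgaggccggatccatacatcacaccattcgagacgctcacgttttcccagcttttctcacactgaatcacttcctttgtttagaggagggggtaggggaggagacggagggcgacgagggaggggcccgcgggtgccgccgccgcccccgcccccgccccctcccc
Adra1b, chr11:43901238-43901487, minus strand: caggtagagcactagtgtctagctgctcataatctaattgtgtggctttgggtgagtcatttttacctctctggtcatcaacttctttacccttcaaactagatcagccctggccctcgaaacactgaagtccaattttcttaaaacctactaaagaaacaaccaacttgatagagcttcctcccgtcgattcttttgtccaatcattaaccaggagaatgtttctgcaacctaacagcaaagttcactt
Adcy5, chr16:35154614-35154863, plus strand: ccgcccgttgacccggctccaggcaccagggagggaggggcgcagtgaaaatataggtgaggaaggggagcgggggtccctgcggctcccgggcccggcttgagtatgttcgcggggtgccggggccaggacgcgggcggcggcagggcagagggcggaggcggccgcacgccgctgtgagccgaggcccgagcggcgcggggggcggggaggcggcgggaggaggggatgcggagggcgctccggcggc
Adrb1, chr19:56721867-56722116, plus strand: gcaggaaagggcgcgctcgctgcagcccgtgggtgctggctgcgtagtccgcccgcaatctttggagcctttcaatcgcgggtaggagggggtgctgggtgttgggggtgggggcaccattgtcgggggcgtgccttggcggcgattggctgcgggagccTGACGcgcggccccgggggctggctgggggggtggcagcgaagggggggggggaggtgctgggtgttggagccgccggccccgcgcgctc
The bases G and C made up 64.4% of the Adora1 window, 41.6% of that of Adra1b, 78.0% of that of Adcy5 and 74.0% of that of Adrb1. The letters searched on both strands were CATTCC for TEAD factors, TGACGTCA for the cyclic AMP response element and TGACG for its short form, which lies within the full element, AGATAA for GATA factors, and the MEF2 motif. The short form TGACG stood 90 bases before the start of Adrb1, and it was present in 17.8% of all 32851 RefSeq windows. CATTCC, held by 12.6% of all windows, was present once among the 8, in the window before an inner start of Adora1, 177 bases from that start and inside an exon of a longer Adora1 transcript. AGATAA was also present once, 67 bases before a start of Pde4d, against 9.99% of all windows. The full cyclic AMP element (1.55% of all windows) and the MEF2 motif (2.92%) were in none of the 8, which says only that these letters are not in these windows.

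Total counts ran from 31011055 to 40073801 per library, and 19418 to 20317 genes had at least 1 count. Values are given as CPM, counts per 1000000 of a library's scaled total, for which 3 counts correspond to 0.0726 to 0.0970 CPM, and group values are means ± SD over 5 control and 4 cKO libraries. Xist, a transcript of female cells, was high in control replicates 2 and 3 and in cKO replicates 3 and 4. Apart from this, the libraries fell into 2 sets that genotype does not explain. Rps3a3, a ribosomal protein gene, read 0.344 to 0.521 CPM in 5 libraries (the first 2 controls and the first 3 cKO libraries) and 99.7 to 112 CPM in the other 4 (controls 3, 4 and 5, and cKO replicate 4). What separates these Rps3a3-low and Rps3a3-high libraries was not tested, so the log2 differences within each set stand beside the members below, and in the high set they rest on 1 cKO library. Arid1a itself, counted over the whole gene and over all cell types, went from 140 ± 8.83 CPM (SD, n = 5) in control to 106 ± 5.44 CPM (SD, n = 4) in cKO with no overlap between the groups (log2 fold change -0.39, SE 0.06, adjusted p = 0.0013 by the edgeR quasi-likelihood test with Benjamini-Hochberg adjustment).

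Markers of heart muscle were by far the most abundant of the cell type lists, and those of other cells moved with genotype in part. The 10 cardiomyocyte markers summed to 47609 to 57050 CPM in control and 43988 to 51148 CPM in cKO, and 1 of them was lower at an adjusted p under 0.05. The 8 fibroblast markers summed to 6920 to 8209 CPM in control and 8555 to 9502 CPM in cKO, without overlap, and 4 of them were higher. The sums of the 8 endothelial markers (1684 to 1811 against 1621 to 1769 CPM, 1 lower), the 8 mural markers (1849 to 1953 against 1841 to 2167 CPM) and the 8 macrophage markers (108 to 182 against 130 to 236 CPM) overlapped. The 6 erythroid markers read 483 to 930 CPM in control and 734 to 1136 CPM in cKO. Of 6 adipocyte markers 5 were under 1 CPM on average over the 9 libraries (Ucp1 reached 1.25 ± 2.45 CPM in cKO) and Lep was at 0, and the list's sum of 562 to 742 against 618 to 654 CPM came almost wholly from Fabp4, which endothelium also expresses. The part of cell makeup in the values below was not tested, and in bulk tissue fewer cells of a type and less RNA per cell cannot be told apart.

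Transcripts of Adora1, Adcy6, Adra1b and Adcy5 were lower in cKO than in control ventricles, those of Pde3a were higher, and Adrb1, Adra1a, Chrm2 and Pde4d did not pass the test. A gene passed at an adjusted p under 0.05 and was called when it also changed more than 1.5-fold, the thresholds the study used. Of the 9 members 1 was called, Adora1, against 6.72% of all genes tested (4.01% called higher and 2.72% called lower). At the adjusted p alone 4 members were lower and 1 was higher, against 8.03% of all genes lower, 8.25% higher and 16.3% in either direction. The control and cKO libraries did not overlap for 2 members, Adora1 and Adcy6, a state that 16.7% of all genes tested shared. The members' median log2 fold change was -0.24 and their median absolute change 0.35, beside 0.01 and 0.17 over all genes tested.

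**Figure D1:**
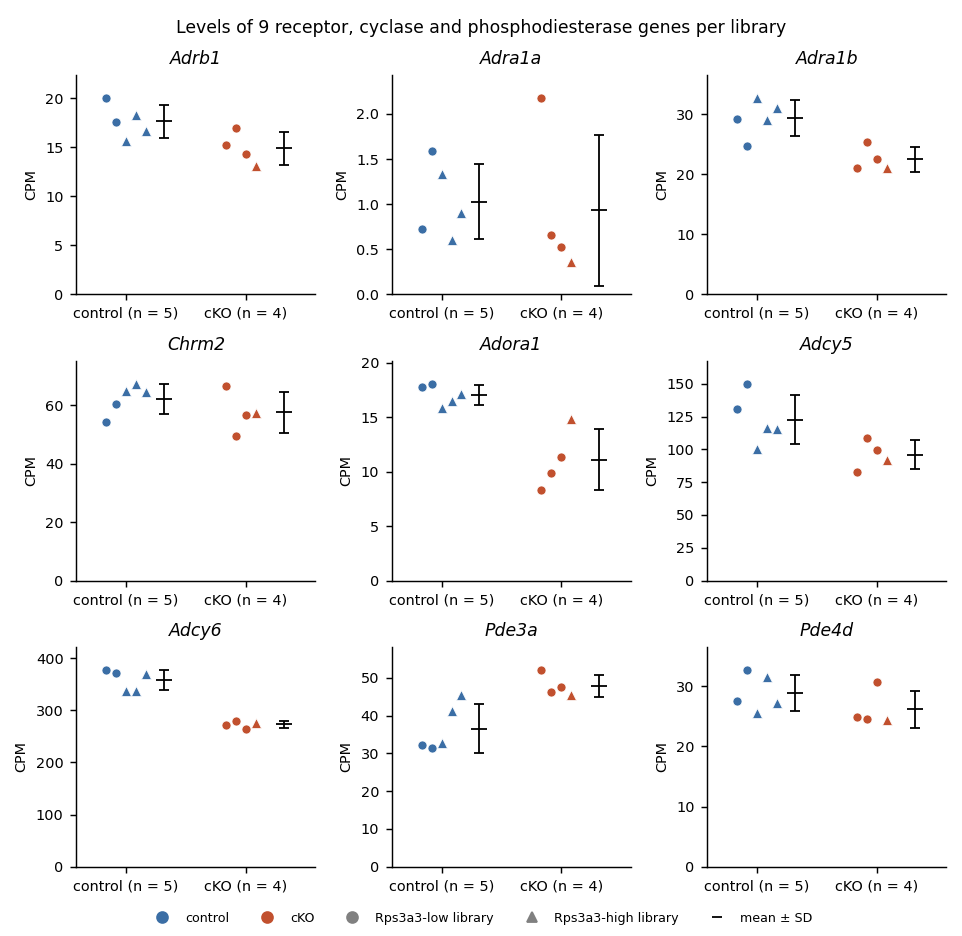
Level of each of the 9 genes in every library, in CPM on axes that start at 0. Blue points are the 5 control and red points the 4 cKO libraries, circles mark Rps3a3-low and triangles Rps3a3-high libraries, and the bar beside each group is the mean ± SD. Adora1 and Adcy6 are the 2 panels in which all red points lie below all blue points, and cKO replicate 1 stands far above the other cKO libraries for Adra1a.

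Adora1 (ENSMUSG00000042429, GRCm38 chromosome 1, 134199223 to 134235431, minus strand) encodes the A1 adenosine receptor, the Gi-coupled receptor through which adenosine slows and quiets heart muscle. Its level was 17.8, 18.0, 15.8, 16.5 and 17.2 CPM in control replicates 1 to 5 and 8.36, 9.91, 11.3 and 14.9 CPM in cKO replicates 1 to 4. The control libraries lay close together, every cKO library was below the lowest of them, and cKO replicate 4, the only Rps3a3-high library of its group, came nearest. Group means were 17.1 ± 0.906 and 11.1 ± 2.78 CPM, so cKO was 1.53-fold lower (log2 fold change -0.62, SE 0.14, adjusted p = 0.0113, edgeR). Within the Rps3a3-low libraries the difference was -0.84 and within the high set -0.14 on the log2 scale. The adjusted p stayed between 0.00044 and 0.0341 under all 19 alternative fits, while the fold fell short of 1.5 without cKO replicate 1 (-0.50), without cKO replicate 2 (-0.56) and with the library set as a term (-0.58). Of the annotated exon length of Adora1 20.1% (1162 bases) is shared with Mybph on the other strand, and Mybph itself had at most 0.435 CPM in any library.

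The 3 tested genes with at least 5 CPM on average that followed the level of Adora1 most closely over the 9 libraries, out of 10702 compared, were Ncam1 (Pearson r = 0.97), Map2k3 (0.97) and Rtcb (0.96), which encode a cell adhesion molecule, a MAP kinase kinase and an RNA ligase. Ncam1 was also lower in cKO (39.4 against 26.9 CPM, log2 fold change -0.55, adjusted p = 0.00443 by edgeR). Map2k3 (-0.19, adjusted p = 0.0581) and Rtcb (-0.07, adjusted p = 0.375) did not pass the same test, so their likeness includes the spread within the groups. These correlations describe 9 shared libraries, in which many genes differ with genotype at once, and the part of the library sets in them was not tested.

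Adrb1 (ENSMUSG00000035283, chromosome 19, 56722199 to 56733113, plus strand) encodes the beta1 adrenoceptor, the main receptor for noradrenaline on ventricular muscle. It read 20, 17.6, 15.6, 18.3 and 16.6 CPM in the control libraries and 15.2, 17.0, 14.3 and 13.04 CPM in the cKO libraries. In 3 of the 4 cKO libraries it lay below the lowest control and in cKO replicate 2 among the controls. The means were 17.6 ± 1.66 and 14.9 ± 1.65 CPM, with a log2 fold change of -0.24 (SE 0.10) that did not pass (adjusted p = 0.128, edgeR). With the library set as a term the value was -0.31 and passed at an adjusted p of 0.0323, the only 1 of 19 alternatives in which it did. Within the Rps3a3-low libraries the difference was -0.27 and within the high ones -0.35.

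Adra1b (ENSMUSG00000050541, chromosome 11, 43774606 to 43901210, minus strand) encodes the alpha1B adrenoceptor, which couples to Gq and is linked to the growth response of heart muscle. Control libraries read 29.2, 24.7, 32.7, 29 and 30.96 CPM and cKO libraries 20.96, 25.4, 22.6 and 21.1 CPM. The groups overlapped through control replicate 2 and cKO replicate 2 alone. The mean fell from 29.3 ± 2.98 to 22.5 ± 2.08 CPM (log2 fold change -0.38, SE 0.09, adjusted p = 0.0157, edgeR), or 1.30-fold. It passed in 16 of 19 alternatives. Among the 3 in which it did not were the fit without cKO replicate 4 (adjusted p = 0.0504) and that of the 5 Rps3a3-low libraries alone, where the fitted value was -0.23 (adjusted p = 0.415). The differences between means were -0.22 among these 5 libraries and -0.54 among the Rps3a3-high ones.

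The transcripts of the alpha1A adrenoceptor, Adra1a (ENSMUSG00000045875, chromosome 14, 66635251 to 66771168, plus strand), were scarce. They came to 0.722, 1.59, 1.33, 0.597 and 0.905 CPM in control and 2.18, 0.662, 0.521 and 0.363 CPM in cKO, from 15 to 70 counts a library. The highest and the 2 lowest values of all 9 libraries were all found in the cKO group. The log2 fold change of -0.17 had an SE of 0.50 (adjusted p = 0.856, edgeR), so no change of either sign was detected. Without cKO replicate 1 it was -1.0 (SE 0.38, adjusted p = 0.0960, edgeR). Within the Rps3a3-low libraries the difference was -0.12 and within the others -0.71.

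Chrm2 (ENSMUSG00000045613, chromosome 6, 36388084 to 36528414, plus strand), the muscarinic M2 receptor gene through which the vagus nerve acts, was the most abundant of the 5 receptors per length. Control values were 54.2, 60.3, 64.9, 67.1 and 64.5 CPM and cKO values 66.7, 49.3, 56.8 and 57.2 CPM. The cKO group held both the lowest value and, in replicate 1, the second highest. Means were 62.2 ± 5.10 and 57.5 ± 7.10 CPM (log2 fold change -0.11, SE 0.09, adjusted p = 0.441, edgeR), and in the 5 Rps3a3-low libraries the fitted value was 0.0079. The difference between means was -0.00073 there and -0.19 in the high set. Leaving out cKO replicate 1 gave -0.19 and leaving out cKO replicate 2 gave -0.05. A lincRNA gene on the other strand, 9330158H04Rik, shares 142 bases of exon with it, 2.35% of its length.

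The heart expresses mainly 2 adenylyl cyclases, both of which calcium and Gi can inhibit. Adcy6 (ENSMUSG00000022994, chromosome 15, 98589973 to 98610076, minus strand) gave the most precise change of the 9 genes. Its level was 376.5, 372, 337.6, 336.6 and 369 CPM in control and 272, 279, 265 and 276 CPM in cKO. Every cKO library lay well below every control library, in both library sets. The mean fell from 358 ± 19.6 to 273 ± 6.08 CPM, or 1.31-fold (log2 fold change -0.39, SE 0.06, adjusted p = 0.00069, edgeR). The difference was -0.46 among the Rps3a3-low libraries and -0.33 among the others. All 19 alternatives passed, with log2 fold changes from -0.46 to -0.37. An antisense gene, Gm29331, overlaps 605 bases (8.92%) of its exons and has no row in the table.

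Adcy5 (ENSMUSG00000022840, chromosome 16, 35154877 to 35305738, plus strand), the other cardiac cyclase, changed by a similar amount with a wider spread. Control libraries read 131, 150, 100.5, 116 and 116 CPM and cKO libraries 83.1, 109, 99.3 and 92.2 CPM. Only control replicate 3 lay within the range of the cKO libraries. The mean fell from 123 ± 18.6 to 95.9 ± 10.96 CPM (log2 fold change -0.35, SE 0.11), at an adjusted p of 0.049 by edgeR that sat at the threshold. The difference was -0.53 among the Rps3a3-low libraries and -0.26 among the others. It passed in 8 of the 19 alternatives and in 2 of the 9 refits that omitted a single library, those without control replicate 3 or cKO replicate 2. With the level of Xist as a term it did not pass (adjusted p = 0.0707, edgeR). Leaving out cKO replicate 4 gave the highest adjusted p, 0.115, with a log2 fold change of -0.34.

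Pde3a (ENSMUSG00000041741, chromosome 6, 141249269 to 141507448, plus strand) encodes the phosphodiesterase that cyclic GMP inhibits and that milrinone targets in the clinic. It was the only member that rose. Values were 32.2, 31.3, 32.6, 41.3 and 45.6 CPM in control and 52.0, 46.2, 47.5 and 45.5 CPM in cKO. Control replicate 5 slightly exceeded cKO replicate 4, and controls 4 and 5 stood above controls 1 to 3. The mean rose from 36.6 ± 6.45 to 47.8 ± 2.91 CPM, or 1.31-fold (log2 fold change 0.39, SE 0.11, adjusted p = 0.0369, edgeR). The difference was 0.60 among the Rps3a3-low libraries and 0.20 among the others. It passed in 12 of 19 alternatives, and of the 9 refits that omitted a single library those without control replicate 4 or 5 alone passed. In the 5 Rps3a3-low libraries alone the value was 0.61, past the 1.5-fold threshold. The antisense gene Gm28523 shares 741 bases (5.82%) of its exons and has no row in the table.

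Pde4d (ENSMUSG00000021699, chromosome 13, 108449948 to 109953461, plus strand) encodes a phosphodiesterase specific for cyclic AMP that sits near beta adrenoceptors and the calcium release channel. Control libraries gave 27.5, 32.6, 25.5, 31.6 and 27.3 CPM and cKO libraries 24.9, 24.6, 30.7 and 24.3 CPM. Of the 4 cKO libraries 3 were below all controls and cKO replicate 3 was among the highest. Means of 28.9 ± 3.04 and 26.1 ± 3.06 CPM differed by a log2 fold change of -0.14 (SE 0.10) that did not pass (adjusted p = 0.355, edgeR). The difference was -0.17 among the 5 Rps3a3-low libraries and -0.20 among the other 4, and the fit without cKO replicate 3 gave -0.23.

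**Figure D2:**
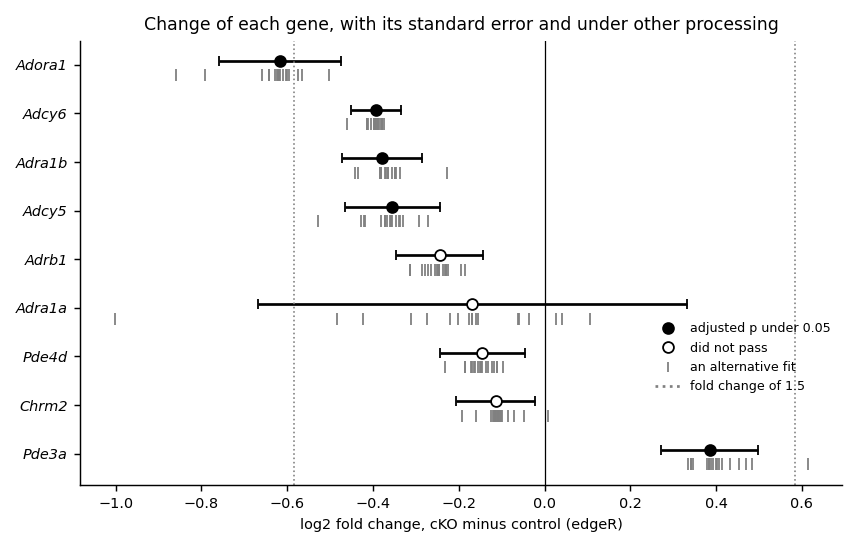
Log2 fold change of each gene, cKO minus control, as fitted by edgeR from 5 control and 4 cKO libraries (circle, filled where the adjusted p is under 0.05) with a bar of ± 1 SE. Grey ticks are the values under alternative fits and the dotted lines mark a 1.5-fold change. Only the circle of Adora1 lies past a dotted line, the ticks of Adcy6 lie between -0.46 and -0.37, and those of Adra1a spread from -1.0 to 0.11.

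To compare the genes with each other, CPM were divided by the length of all annotated exons in kilobases. In control ventricles Adcy6 was highest at 52.8 ± 2.89 CPM per kilobase, followed by Adcy5 at 17.1 ± 2.58, so the former exceeded the latter 3.09-fold in control and 3.01-fold in cKO. Chrm2 (10.3 ± 0.843) and Adra1b (8.66 ± 0.881) came next with overlapping libraries, and Adrb1 (5.21 ± 0.491) stood clear below them. Adora1 (2.95 ± 0.156) stood narrowly above Pde4d (2.41 ± 0.253 CPM per kilobase), the lowest control library of the former being at 2.74 and the highest of the latter at 2.72. Pde3a (2.87 ± 0.506) overlapped both and could not be placed between them. Adra1a was lowest at 0.118 ± 0.0480 CPM per kilobase, 448-fold below Adcy6. Divided by the longest transcript instead, Adra1a read 0.240 and Adcy6 59.4 CPM per kilobase. In cKO ventricles Pde3a (3.75 ± 0.228) stood above Pde4d (2.18 ± 0.255) without overlap and reached into the range of Adrb1 (4.40 ± 0.489), while Adora1 (1.92 ± 0.481) overlapped Pde4d. The place of Pde4d depends on the length used, for divided by its longest transcript it read 6.87 CPM per kilobase in control, above Adora1 at 3.44, and moved to the fifth place.

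**Figure D3:**
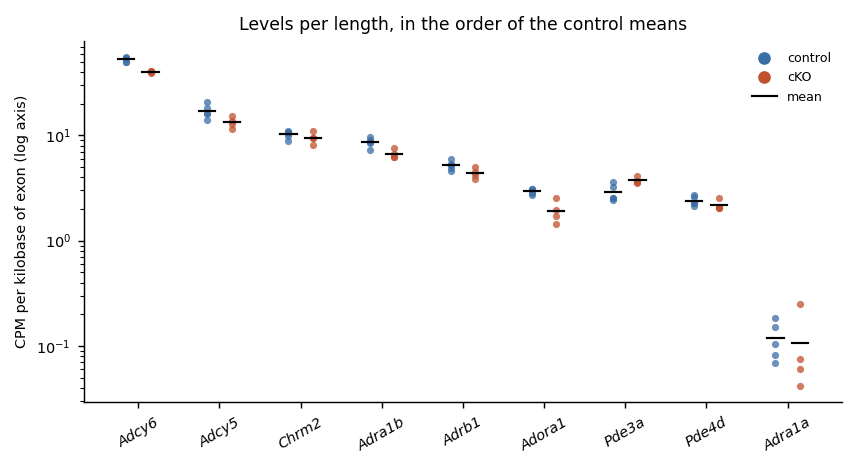
Level per kilobase of annotated exon of the 9 genes on a log axis, in the order of the control means. Each point is a library (blue, 5 control; red, 4 cKO) and each black line a group mean. The cyclases lead in both groups, Pde3a is the only gene whose cKO mean is above its control mean, and Adra1a lies far below the rest.

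Ratios of related genes within a library depend little on its scaling, except through the 0.5 CPM added to each gene, and 5 were compared between the groups by a two-sided exact permutation test, which with 5 and 4 libraries can give no p below 0.00794. Pde3a was set against Pde3b, which encodes the other phosphodiesterase of its family and which did not pass on its own (18.8 ± 3.35 against 15.2 ± 2.39 CPM, log2 fold change -0.31, adjusted p = 0.184, edgeR). The ratio of Pde3a to Pde3b was 2.30, 1.76, 1.47, 1.9 and 2.34 in control and 3.49, 3.63, 2.95 and 2.47 in cKO. All cKO ratios exceeded all control ratios. On the log2 scale the difference was 0.69 (exact permutation p = 0.00794, adjusted over the 5 ratios 0.0397), with 0.73 among the Rps3a3-low libraries and 0.40 among the others. When permutations were kept within the library sets, which allows no exact permutation p below 0.025, the p was 0.025 and 0.125 after adjustment.

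No difference was detected for Adcy5 over Adcy6 (0.04, exact permutation p = 0.722), Adra1a over Adra1b (0.16, exact permutation p = 0.667) or Adrb1 over Chrm2 (-0.12, exact permutation p = 0.460). The value of Adra1a over Adra1b was 0.03 with 0.1 CPM added and 0.27 with 2 CPM added.

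**Figure D4:**
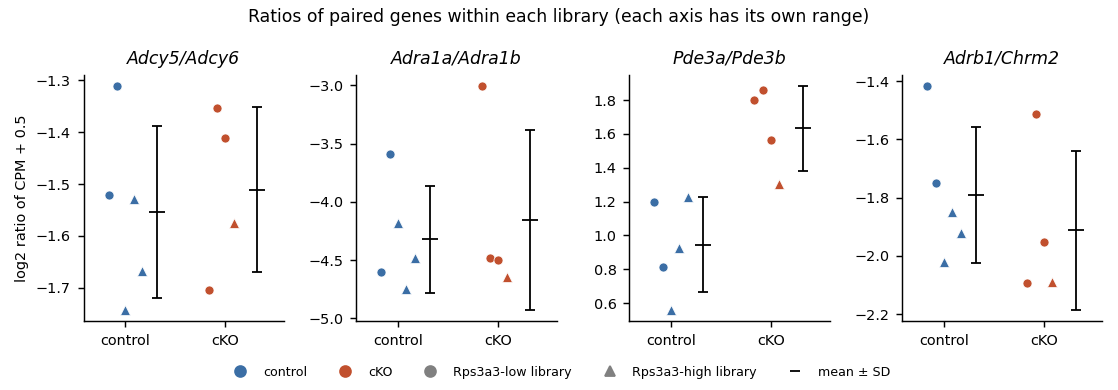
Log2 ratio of 4 gene pairs in each library (CPM + 0.5), each panel with its own axis range. Blue points are control and red points cKO libraries, circles Rps3a3-low and triangles Rps3a3-high, and bars give the mean ± SD (n = 5 and n = 4). The cKO points of Pde3a over Pde3b all lie above the control points, and in the other 3 panels the groups overlap.

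The genes around these members in the pathway were read from 13 lists of 176 genes, of which 174 were in the table and 157 were tested. Of the 157 tested genes 16 rose and 22 fell at the adjusted p (24.2%, against 16.3% of all genes tested), and of these 9 were called higher and 10 lower (12.1%, against 6.72%).

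Other receptors were mostly scarce. Among the other adrenoceptors 3 of 6 were tested, and Adra1d, the third alpha1 gene, was lower (1.49 ± 0.404 against 0.798 ± 0.226 CPM, log2 fold change -0.90, SE 0.27, adjusted p = 0.0419, edgeR). Its values ran from -1.11 to -0.77 over 19 alternatives, of which 9 did not pass, among them those without control replicate 1, 2 or 5 or cKO replicate 1, 3 or 4. The fit with the level of Xist as a term was also among them (adjusted p = 0.0582, edgeR). Adrb3, Adra2a and Adra2c had at most 13 counts in any library. None of the 4 tested muscarinic and adenosine receptors passed, and the most abundant of them, Adora2a, a Gs-coupled adenosine receptor, read 15.1 ± 1.34 and 17.5 ± 3.30 CPM (log2 fold change 0.21, adjusted p = 0.279, edgeR). Of the 22 tested G protein genes only Gnb3, a beta subunit gene, passed. Gnb3 fell from 5.43 ± 1.10 to 1.03 ± 0.480 CPM without overlap (log2 fold change -2.41, SE 0.32, adjusted p = 0.0004, edgeR). Gnas, which encodes the alpha subunit of Gs and was the most abundant of the list, read 1460 ± 116 and 1433 ± 61.7 CPM (-0.03, adjusted p = 0.834).

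**Figure D5:**
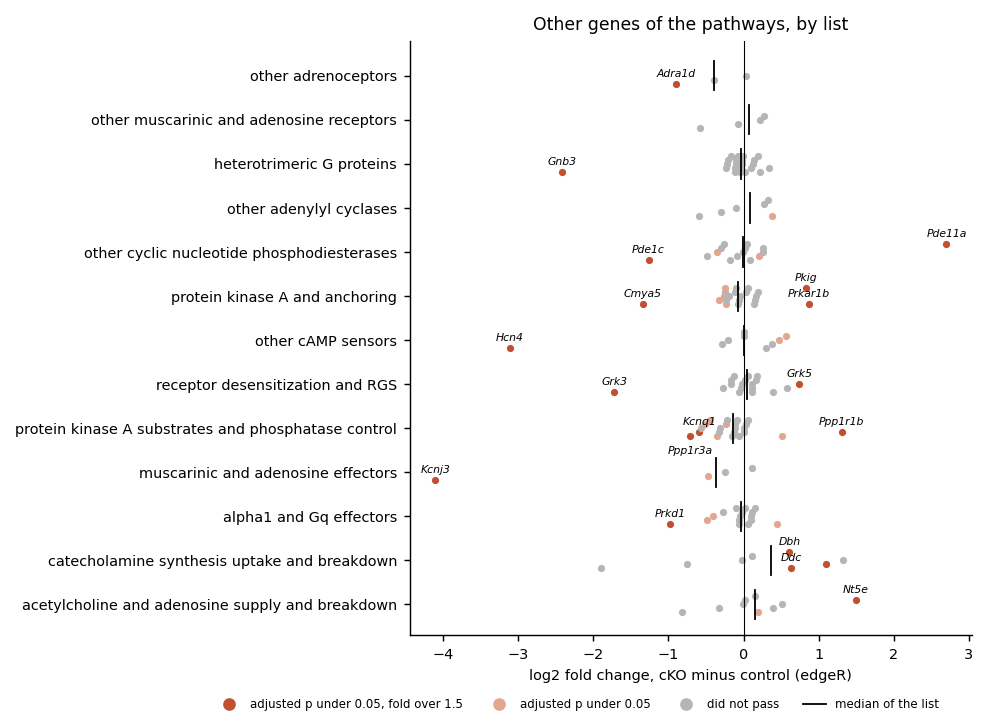
Log2 fold change (cKO minus control, edgeR) of the 157 tested genes of 13 pathway lists, 1 point a gene, with a bar at the median of each list. Dark points were called, light red points passed at the adjusted p alone and grey points did not pass. Most lists centre near 0 with single genes far out, such as Kcnj3 at -4.10, Hcn4 at -3.11 and Pde11a at 2.70. Pde11a passed the filter on low counts through its cKO libraries alone.

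Of 18 tested receptor kinases, arrestins and RGS genes, which turn receptors off, 1 was lower and 1 higher (11.1%, against 16.3% of all genes tested). Grk3, a kinase that marks active receptors for arrestin, read 46.0, 50.3, 44.6, 43.1 and 59.6 CPM in control and 15.2, 12.7, 15.03 and 16.2 CPM in cKO (log2 fold change -1.72, SE 0.11, adjusted p = 1.08e-06, edgeR). Grk5, another such kinase, went the other way, from 33.3 ± 2.36 to 55.8 ± 4.46 CPM (0.74, SE 0.08, adjusted p = 5.13e-05). Neither gene overlapped between the groups, and both calls held in all 19 alternatives. Grk2, the kinase most studied in heart failure, read 71.6 ± 5.91 and 68.9 ± 8.49 CPM (-0.06, adjusted p = 0.718), and Rgs5, the most abundant gene of the list and also a mural marker, 908 ± 70.1 and 982 ± 125.6 CPM (0.11, adjusted p = 0.431).

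On the cyclic AMP side, 1 of the 6 other cyclases passed (16.7%, against 16.3% of all genes tested). This was Adcy7, which rose from 24.0 ± 3.03 to 31.2 ± 3.07 CPM (log2 fold change 0.38, adjusted p = 0.0255, edgeR). Adcy4, the most abundant of these 6, read 38.3 ± 6.41 and 35.6 ± 2.31 CPM (-0.10, adjusted p = 0.571). Of 15 other phosphodiesterase genes 2 rose and 2 fell (26.7%, against 16.3% of all genes tested). Pde1c, which calcium and calmodulin activate, read 94.8, 103, 124, 130 and 117 CPM in control and 42.5, 43.0, 53.3 and 50.5 CPM in cKO, 2.4-fold lower (log2 fold change -1.27, SE 0.11, adjusted p = 1.01e-05, edgeR). Pde11a was nearly undetected in control, with 0 to 8 counts a library, and had 15 to 35 counts in cKO (0.111 ± 0.0960 against 0.726 ± 0.205 CPM). It passed the filter on low counts through its cKO libraries alone. Its log2 fold change of 2.70 (SE 0.52, adjusted p = 0.00418, edgeR) is therefore given as a description only. The filter at a mean of 1 CPM dropped Pde11a. Pde7a fell (-0.35) and Pde8a rose (0.21) by less than 1.5-fold, and Pde4b, the most abundant, did not pass (126.04 ± 14.3 against 105 ± 12.6 CPM, adjusted p = 0.0965).

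Of the 21 tested protein kinase A subunits, inhibitors and anchoring proteins 5 fell and 2 rose (33.3%, against 16.3% of all genes tested). The catalytic subunit gene Prkaca fell from 374 ± 25.7 to 298 ± 14.7 CPM (log2 fold change -0.33, SE 0.07, adjusted p = 0.00493, edgeR) and the anchoring protein gene Cmya5 from 226 ± 18.1 to 89.1 ± 8.90 CPM (-1.34, SE 0.08, adjusted p = 9.7e-07). The inhibitor gene Pkig rose from 91.4 ± 24.2 to 163 ± 26.1 CPM (0.83, adjusted p = 0.0162), which did not pass without cKO replicate 2 (0.73). Prkar1b, a regulatory subunit gene, rose from 2.69 ± 0.538 to 4.89 ± 2.0 CPM (0.87, adjusted p = 0.0318), which did not pass in 6 of 19 alternatives (values from 0.43 to 1.02), among them those without control replicate 1, 3 or 5 or cKO replicate 2 or 4. Prkar1a, the most abundant gene of the list, read 860 ± 37.6 and 985 ± 81.3 CPM (0.19, adjusted p = 0.0695).

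Of the genes of 9 other proteins that bind cyclic AMP or resemble such proteins, 2 rose and 1 fell (33.3%, against 16.3% of all genes tested). Hcn4, a pacemaker channel gene, had 69 to 159 counts in the control libraries and 11 to 20 in the cKO libraries (3.69 ± 1.16 against 0.426 ± 0.145 CPM, adjusted p = 5.13e-05, edgeR). Hcn2, the more abundant pacemaker channel gene at 20.3 ± 4.29 and 30.1 ± 5.83 CPM, rose (log2 fold change 0.56, SE 0.17, adjusted p = 0.042, edgeR), as did Bves (0.47, adjusted p = 0.0129). Popdc2, the most abundant of the 9, read 566 ± 55.6 and 488 ± 30.9 CPM (-0.21, adjusted p = 0.0919). The 6 atrial markers summed to 95.2 to 174 CPM in control and 153 to 221 CPM in cKO, with 1 higher and 1 lower, and their part in these values was not tested.

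Of 22 tested substrates of protein kinase A and phosphatase regulators 6 fell and 2 rose (36.4%, against 16.3% of all genes tested). Pln, whose product brakes the calcium pump until it is phosphorylated, fell from 5868 ± 393 to 4305 ± 670 CPM (log2 fold change -0.45, SE 0.10, adjusted p = 0.00875, edgeR). Atp2a2, the pump itself and the most abundant gene of the list, fell by 0.23 on the log2 scale (adjusted p = 0.0458). Kcnq1 and Kcne1, which encode the pore and the partner of one repolarizing potassium channel, moved apart, at -0.59 (61.8 ± 5.79 against 41.0 ± 5.16 CPM, adjusted p = 0.00147) and 0.51 (278 ± 33.3 against 396 ± 40.6 CPM, adjusted p = 0.00317). Kcnq1 was only just past the 1.5-fold threshold and fell short of it in 6 of 19 alternatives (values from -0.68 to -0.52), among them those without control replicate 1 or 2 or cKO replicate 4. The phosphatase regulators Ppp1r1b (2.70 ± 0.917 against 6.69 ± 1.17 CPM, 1.31, adjusted p = 0.00295) and Ppp1r3a (103 ± 17.0 against 62.7 ± 9.53 CPM, -0.71, adjusted p = 0.00359) did not pass in the 5 Rps3a3-low libraries alone.

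The potassium channel that muscarinic M2 and adenosine A1 receptors open through Gi is built from the products of Kcnj3 and Kcnj5. Both fell, as the only ones of 4 tested effector genes of these receptors to pass (50%, against 16.3% of all genes tested). Kcnj3 read 25.6, 33.6, 28.8, 23.8 and 30.3 CPM in control and 3.76, 0.821, 1.13 and 1.02 CPM in cKO. Every cKO library was far below every control library, with cKO replicate 1 the highest of its group, and the change was 17.2-fold (log2 fold change -4.10, adjusted p = 0.0004, edgeR), or -4.84 on the log2 scale without that library. Kcnj5 fell from 119 ± 9.97 to 85.5 ± 11.02 CPM (log2 fold change -0.48, SE 0.09, adjusted p = 0.00436) without overlap. Of the 16 tested alpha1 and Gq effectors 3 fell and 1 rose (25%, against 16.3% of all genes tested). Prkd1, a protein kinase D gene, fell from 13.3 ± 1.5 to 6.75 ± 1.11 CPM (-0.98, SE 0.13, adjusted p = 0.00036), Prkce by 0.49 and Camk2d, the most abundant of the list, by 0.40 on the log2 scale, and Rcan1, a calcineurin regulator gene, rose by 0.44.

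Of 8 tested genes for the synthesis, uptake and breakdown of catecholamines 3 were called higher and none passed as lower. The called share was 37.5%, against 6.72% of all genes tested. Among the called ones, the synthesis genes Ddc (53.1 ± 14.4 against 82.6 ± 7.89 CPM, log2 fold change 0.64, adjusted p = 0.0242) and Dbh (5.48 ± 0.812 against 8.36 ± 1.9 CPM, 0.61, adjusted p = 0.0258, edgeR) overlapped between the groups, and were not called in 8 and 7 of 19 alternatives. For Ddc these included the fits without control replicate 3, 4 or 5 or cKO replicate 2 or 4 (values from 0.34 to 0.80 over all 19), and for Dbh those without control replicate 3, 4 or 5 or cKO replicate 1 or 2 (from 0.47 to 0.71). Th, the first enzyme of the same route, had at most 1 count in any library. The nerve and Schwann cell markers, a list that includes Dbh, summed to 35.7 to 55.2 CPM in control and 53.9 to 82.2 CPM in cKO, 2 of the 8 tested were higher, and 5 of 10, among them Th, S100b and Tubb3, were under 1 CPM on average over the 9 libraries (Tubb3 was at 0.632 ± 0.304 CPM in control and 1.15 ± 0.367 CPM in cKO). The median log2 fold change of the 8 tested nerve and Schwann cell markers was -0.18, and their part in these values was not tested.

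Of 9 tested genes for the supply and breakdown of acetylcholine and adenosine 2 rose and none fell (22.2%, against 16.3% of all genes tested). Chat, the acetylcholine synthesis gene, was at 0 in all 9 libraries. Nt5e, whose product CD73 makes adenosine from AMP outside the cell, read 17.1, 15.1, 19.9, 19.7 and 18.5 CPM in control and 49.6, 48.2, 50.7 and 54.5 CPM in cKO (log2 fold change 1.49, SE 0.09, adjusted p = 7.49e-07, edgeR) and was called in all 19 alternatives. Adk, which clears adenosine inside the cell and was the most abundant of the list, rose from 106 ± 2.80 to 121 ± 6.69 CPM (0.19, adjusted p = 0.0383). The adenosine transporter gene Slc29a1 did not pass (0.16, adjusted p = 0.192).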

How the data were processed

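Ventricular RNA of 5 Arid1a f/f and 4 aMHC-Cre;Arid1a f/f pups was sequenced from stranded mRNA libraries. The authors deposited raw counts per Ensembl gene, from 75-base single reads aligned to mm10. The submitters' processing notes name STAR (2.4.2a) and HTSeq (0.6.1), and the annotation and strand setting are not given in the sources used here. The study's methods give 4 control hearts and its figure legend gives 5, and all 5 labelled control libraries were used here.

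Symbols, positions and lengths came from GENCODE M21 (GRCm38), which matched 36429 of 38293 identifiers. Genes were filtered by filterByExpr (minimum count 10), scaled by TMM and tested with the robust quasi-likelihood F test of edgeR (4.0.16, R 4.3.3) on genotype alone, with Benjamini-Hochberg adjustment over 15318 genes. DESeq2 (1.42.0), the study's tool, was an alternative. Standard errors are the absolute log2 fold change over the root of F. Scripts were tested on simulated counts. Members, lists and tests were chosen with earlier results of these data known. All members are named, and of each list the called genes (up to 4) and the most abundant. Adrb3, Adra2a, Adra2c, Grk2, Prkaca, Pln, Kcne1, Hcn2, Bves, Adcy7, Pde7a, Pde8a, Prkce, Rcan1, Th, Chat and Slc29a1 were added after their values were seen. No label says that libraries of a group came from separate litters, so p-values measure the spread between these libraries only. Some genes of the lists and 1 of the 5 ratios are not reported here.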

Additional observations from a re-analysis of the deposited data

Results flagged for a closer look

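In 4 of the 70 groups of values examined, 1 library lay far from the others of its group by Dixon's test at the 95% level, where chance alone marks about 1 group in 20. In the cKO group Adra1a read 2.18 CPM in replicate 1 and at most 0.662 CPM in the other 3 libraries, and the log2 ratio of Adra1a to Adra1b was accordingly -3.00 there and at most -4.48 elsewhere. Kcnj3 read 3.76 CPM in the same library, cKO replicate 1, and at most 1.13 CPM in the other cKO libraries. Pde4d read 30.7 CPM in cKO replicate 3 and at most 24.9 CPM in the others. Adra1a and Pde4d did not pass the test, and Kcnj3 was called without cKO replicate 1 as well, at a log2 fold change of -4.84.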

How the results depend on the processing

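Of 170 refitted member values 144 kept their direction and their side of the adjusted p threshold. Another 21 lost that threshold, 1 (Adrb1) gained it and 4 changed sign. The 1.5-fold threshold was not part of these counts. With both thresholds Adora1 was called in 16 of 19 alternatives and Pde3a in 1 of 19. The 5 Rps3a3-low libraries alone gave 620 genes called instead of 1030, 2 members called (Adora1 and Pde3a), 17 instead of 38 pathway genes past the adjusted p, and a Chrm2 value of 0.0079, from 5 libraries instead of 9. With the library set as a term 0 members were called. With the replicate number as a block (replicate block) 888 genes were called and 3 members passed instead of 5, Adra1b and Adcy5 having missed the threshold at adjusted p of 0.0762 and 0.0508 by edgeR. Deviations of same-numbered libraries correlated at 0.01 to 0.23, so the numbers were not taken to pair the samples. Leaving out each library in turn gave 0 to 1 members called and 2 to 4 members past the adjusted p, the lowest without cKO replicate 4. It moved Adra1a from -1.0 to 0.11, Chrm2 from -0.19 to -0.05 and Pde4d from -0.23 to -0.10. The log2 ratio differences of Adcy5 to Adcy6 ran from -0.0091 to 0.11. Those of Adra1a to Adra1b ran from -0.22 to 0.35 and those of Adrb1 to Chrm2 from -0.25 to -0.03. Adra1a was dropped by the filter at a mean of 1 CPM. The causes were not tested. The lowest counts behind a member were those of Adra1a, 15 to 70 a library.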
